A study of Mus musculus with 6 samples.

Results

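Box H/ACA small nucleolar RNAs (snoRNAs) were examined in RNA sequencing of CD4 T cells sorted from mouse spleen. All genes of the count table were taken whose Ensembl identifier maps in GENCODE release 21 on GRCm38 to a symbol that starts with Snora and to the biotype snoRNA or scaRNA. This rule was met by 42 of the 47729 genes listed, and the 17 with 20 or more counts summed over the 6 libraries are described here. The other 25 comprised 8 genes with 1 to 19 counts and 17 with 0 counts.

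The libraries fell into 3 groups of 2. OFF cells came from RBPJind mice that had doxycycline (Dox) in their water for 3 weeks and then none for 1 week while the cells matured in the periphery. ON cells came from RBPJind mice that had Dox for all 4 weeks. RBPJ binds DNA and passes the signal of Notch receptors on to their target genes. Dox induces it in RBPJind mice, and the labels call ON cells responsive and OFF cells unresponsive to Notch. Both were sorted as immature naive cells, CD3+CD4+CD25-CD45RBint. WT cells came from wild type mice and were described as mature naive, with the gate CD3+CD4+CD25-CD45RBhi. All 6 samples carry the treatment label Dox, for WT without a duration. The labels give neither the promoter that drives RBPJ, nor the age of the mice, nor whether both libraries of a group stem from different mice. The p-values therefore cover the spread between libraries, which may be technical.

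Box H/ACA snoRNAs guide the conversion of uridine to pseudouridine in ribosomal and spliceosomal RNA. Each folds into hairpins joined by a hinge (the H box, ANANNA) and followed by the triplet ACA near the 3' end, and is bound by the pseudouridine synthase dyskerin (Dkc1) with Gar1, Nhp2 and Nop10. In mammals most are cut out of the introns of host genes, many of which encode ribosomal proteins or translation factors. Snora73 (U17) is an exception in function, being known from human and yeast cells as a factor of precursor ribosomal RNA cleavage rather than as a guide.

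The sequences below, from the GENCODE release 21 transcripts of GRCm38, belong to the 4 snoRNAs whose calls between the groups held under every alternative run. Capitals mark the ANANNA match or run of matches nearest the middle of the RNA and the ACA exactly 3 bases from the 3' end.
Snora69: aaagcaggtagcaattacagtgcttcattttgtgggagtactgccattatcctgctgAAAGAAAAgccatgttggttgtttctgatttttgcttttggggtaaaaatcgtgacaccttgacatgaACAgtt
Snora41: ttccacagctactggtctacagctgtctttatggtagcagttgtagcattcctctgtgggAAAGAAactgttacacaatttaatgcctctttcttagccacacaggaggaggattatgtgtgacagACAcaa
Snora23: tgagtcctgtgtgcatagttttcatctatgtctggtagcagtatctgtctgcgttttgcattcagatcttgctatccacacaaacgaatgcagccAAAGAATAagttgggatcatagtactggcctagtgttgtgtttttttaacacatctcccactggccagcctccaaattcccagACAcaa
Snora21: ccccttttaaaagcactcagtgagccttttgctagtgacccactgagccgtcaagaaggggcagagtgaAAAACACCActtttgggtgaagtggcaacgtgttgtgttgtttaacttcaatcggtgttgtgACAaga

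Snora69 (ENSMUSG00000065642) lies at chrX:37082912-37083042 on the minus strand, in intron 2 of 2 of Rpl39. Snora41 (ENSMUSG00000064602) lies at chr1:63179004-63179135 on the plus strand, in intron 4 of 5 of Eef1b2. Snora23 (ENSMUSG00000064451) lies at chr7:110046364-110046547 on the plus strand, in intron 13 of 24 of Ipo7, and an intron of the gene model 1600010M07Rik runs over it on the other strand. Snora21 (ENSMUSG00000064901) lies at chr11:97781639-97781775 on the minus strand, in intron 2 of 4 of Rpl23. Across the 42 annotated RNAs an ACA stood exactly 3 bases from the 3' end in 35 (83.3%), and in 14 of the 17 described here (82.4%), against 0 of 98 box C/D snoRNAs. ANANNA occurred in the central part of 39 of the 42 (92.9%), against 43 of 98 box C/D snoRNAs (43.9%). Both motifs were searched on the transcribed strand only, and a match is a description of the letters, not a shown site.

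Snora73b and Snora73a are near-identical and are shown because their counts were not alike. Capitals here mark the positions at which they differ.
Snora73b: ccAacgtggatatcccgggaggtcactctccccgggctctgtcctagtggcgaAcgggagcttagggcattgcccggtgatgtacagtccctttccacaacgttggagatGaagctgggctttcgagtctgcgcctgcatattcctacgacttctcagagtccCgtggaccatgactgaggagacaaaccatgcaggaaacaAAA
Snora73a: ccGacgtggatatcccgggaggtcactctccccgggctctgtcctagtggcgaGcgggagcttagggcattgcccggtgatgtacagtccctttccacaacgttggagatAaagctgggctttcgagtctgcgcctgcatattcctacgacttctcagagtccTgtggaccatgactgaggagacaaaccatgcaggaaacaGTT

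Snora73b (ENSMUSG00000065353, chr4:132352322-132352526, minus strand) and Snora73a (ENSMUSG00000064387, chr4:132352775-132352979, minus strand) are each 205 bases long and differ at 7 positions, an identity of 96.6%. Counted from the 5' end, with the base of Snora73b first, the differences are A3G, A54G, G111A, C164T, A203G, A204T and A205T. Snora73b held 9235 counts over the 6 libraries and Snora73a held 5, of which 2 and 3 were in the OFF libraries. Reads within the shared stretches can align to both genes, so the split between them is uncertain. Snora73a also lies partly over an exon of Snhg3 on the same strand, whereas Snora73b lies in introns only. The part of this overlap in the low count of Snora73a was not tested.

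Counts assigned to genes numbered 17200098 to 18043797 in OFF, 18973296 to 19319183 in ON and 17025551 to 17122640 in WT. Unaligned reads made up 22.1% and 24.3% in OFF, against 14.8% and 9.34% in ON and 21.8% and 18.8% in WT, so this share was lowest in the same libraries in which most H/ACA snoRNAs were low. Levels are given as CPM, gene counts per library scaled to a common size by TMM. Rbpj, the induced gene, averaged 30.7 ± 1.32 CPM in OFF, 88.9 ± 13.1 in ON and 35.7 ± 0.590 in WT (SD, n = 2 each). It was lower in OFF than in ON (log2 -1.53 ± 0.14; edgeR adjusted p = 0.00195) and not called between OFF and WT (log2 -0.22 ± 0.14; edgeR adjusted p = 0.422), so this RNA does not by itself show a loss of RBPJ in OFF relative to WT. T cell markers summed to 1475 to 1958 CPM in all libraries. B cell markers summed to 187 and 232 CPM in OFF, 213 and 185 in ON and 33.3 and 25.3 in WT. Regulatory T cell markers summed to 169 and 326 CPM in OFF, 174 and 111 in ON and 14.8 and 14.0 in WT. No marker was at 0 in all libraries. In cells sorted in bulk, fewer cells of a type and less RNA per cell cannot be told apart.

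Detection was uneven. Snora21, Snora23 and Snora73b held 79.9% of the 43959 counts of the class, which takes in only genes with a Snora symbol. Per kilobase of length, Snora21 averaged 1086 CPM over the 6 libraries, Snora23 averaged 540 and Snora73b averaged 421. The 14 others lay between 3.33 (Snora47) and 85.0 (Snora28) CPM per kilobase. Lengths ran from 127 to 205 bases, with a median of 132. Of the 17 genes with 20 or more counts 11 lay only in introns of a gene on the same strand, 3 lay wholly inside an exon of a retained-intron transcript, 1 partly over one, and 2 (Snora57 and Snora17) had no gene around them on that strand. Of the 17 genes with 0 counts 15 lay wholly inside an annotated exon of a same-strand gene, and for 9 of these the exon belonged to retained-intron transcripts alone. Reads that meet features of more than 1 gene are set aside as ambiguous (0.987% to 1.33% of all reads). The annotation used for the deposited counts is not given in the sources used here, so the part of such overlaps in the zeros was not tested. The 0-count genes were Snora3, Snora7a, Snora9, Snora15, Snora24, Snora26, Snora44, Snora52, Snora61, Snora64, Snora65, Snora70, Snora74a, Snora75, Snora81 and a second annotated copy each of Snora16a and Snora43. A sum of 0 allows up to 3 counts. The genes with 1 to 19 counts were Snora5c (14 counts), Snora43 (6), Snora73a (5), Snora36b (3), Snora16a (3), and Snora34, Snora35 and Snora19 with 1 each. Just above the limit stood Snora47 with 49 counts, in an intron of Zbed3, which was too low to be tested. Snora47 was at 0.347 and 0.721 CPM in OFF, 0.358 and 0.446 in ON and 0.419 and 0.465 in WT, with overlapping groups.

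**Figure D1:**
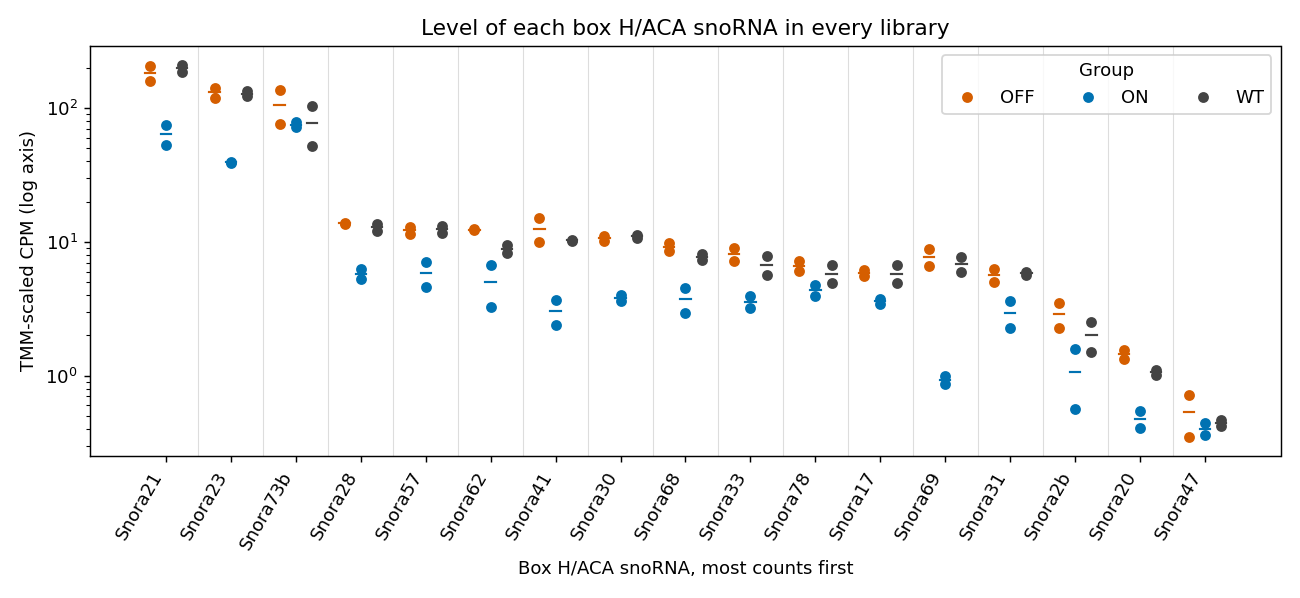
TMM-scaled CPM (log axis) of the 17 box H/ACA snoRNAs in each library, with OFF, ON and WT side by side, points for libraries and short lines for group means. The ON points lie below all 4 others for 14 of the 16 tested snoRNAs, against 14.7% of all tested genes. Snora69 stands furthest apart.

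OFF was set against ON to ask what differed once Notch responsiveness had, per the labels, been withdrawn for the last week of maturation, in cells sharing genotype and sort gate. Withdrawal of Dox itself cannot be told apart from that of RBPJ. H/ACA snoRNAs had higher scaled counts in OFF than in ON. Of the 16 tested, 7 were called higher and 0 lower in OFF by edgeR's quasi-likelihood test (adjusted p under 0.05 over 15780 genes), whereas 1.03% of all tested genes were called, 0.602% higher and 0.425% lower. The 7 were Snora69, Snora41, Snora23, Snora21, Snora30, Snora68 and Snora28. The log2 fold changes of the 16 ran from 0.49 to 3.04 with a median of 1.31 (2.48-fold), beside a median of 0.00 over all tested genes. Both OFF libraries stood above both ON libraries for 15 of the 16, against 23.4% of all tested genes, and below them for 0, against 23.3%. As a share of all gene counts the class made up 0.0575% and 0.0444% in OFF and 0.0221% and 0.0243% in ON. Leaving out Snora21, Snora23 and Snora73b, the share averaged 0.0106% in OFF and 0.00465% in ON. Of 33 marker genes of T cells and other cell types 26 were tested and 0 were called between OFF and ON (8 at an unadjusted p under 0.05). The share of unaligned reads differed between these groups as given above, and its part in the result was not tested. Some other small RNAs also took up less of the gene counts in ON. Box C/D snoRNAs averaged 0.0836% in OFF and 0.0537% in ON, and Rnu genes, of small nuclear RNAs, 0.00976% and 0.00358%. Rpph1, the RNA of RNase P, went the other way, averaging 0.934% in OFF and 1.43% in ON. The library kit is not given, and a difference between libraries in the recovery of short RNA was not tested.

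SnoRNAs carried by ribosomal protein genes included the widest difference. Snora69, a guide RNA in Rpl39, had 8.78 and 6.61 CPM in OFF against 0.869 and 0.991 CPM in ON. Those values rest on 152 and 110 counts in OFF and 17 and 20 counts in ON, and the groups were far from overlapping. The fitted fold change was 8.22 (log2 3.04 ± 0.33, SE; edgeR adjusted p = 0.00443). Snora21, in Rpl23, had 206.7 and 159 CPM in OFF against 53.2 and 75.4 CPM in ON, a 2.84-fold difference (log2 1.51 ± 0.19; edgeR adjusted p = 0.00768). It was the most abundant member in OFF, and its lower OFF library lay above both ON libraries. Snora33, in Rps12, with 8.95 and 7.21 CPM in OFF and 3.94 and 3.22 CPM in ON, was not called (log2 1.18 ± 0.27; edgeR adjusted p = 0.0709). Snora62, in Rpsa, with 12.5 and 12.3 CPM in OFF and 6.75 and 3.27 CPM in ON, was not called either (log2 1.31 ± 0.29; edgeR adjusted p = 0.0698), and neither pair of groups overlapped.

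Snora41 and Snora28 lie in genes of translation factors, Eef1b2 (an elongation factor subunit) and Eif5 (an initiation factor). Snora41 had 15.2 and 9.92 CPM in OFF against 3.68 and 2.38 CPM in ON, a 4.15-fold difference (log2 2.05 ± 0.29; edgeR adjusted p = 0.0130). Snora28 had 13.7 and 13.8 CPM in OFF against 6.29 and 5.25 CPM in ON, a 2.38-fold difference (log2 1.25 ± 0.19; edgeR adjusted p = 0.0210). Neither pair of groups overlapped. The call of Snora28 was lost in 6 alternatives, among them those without OFF 1, OFF 2, ON 2 or WT 2 (adjusted p 0.0518 to 0.0591) and with only the 4 libraries compared (0.0719). Snora31, in the gene of the translationally controlled tumour protein, Tpt1, had 6.24 and 5.05 CPM in OFF and 3.63 and 2.28 CPM in ON and was not called (log2 0.94 ± 0.29; edgeR adjusted p = 0.139).

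The remaining hosts are of other kinds. Snora23, in the nuclear import gene Ipo7, had 142 and 119 CPM in OFF against 39.6 and 38.9 CPM in ON, a 3.34-fold difference (log2 1.74 ± 0.13; edgeR adjusted p = 6.15e-04). It had the smallest p of the members, and its ON libraries were nearly equal. Snora30, in the chromatin remodeller gene Srcap, had 10.2 and 11.1 CPM in OFF against 3.63 and 4.01 CPM in ON, a 2.77-fold difference (log2 1.47 ± 0.21; edgeR adjusted p = 0.0131). Snora2b, in Kansl2, a subunit gene of a histone acetyltransferase complex, had 3.47 and 2.28 CPM in OFF and 0.562 and 1.59 CPM in ON (log2 1.41 ± 0.49; edgeR adjusted p = 0.166). Snora20, in the chaperonin gene Tcp1, had 1.56 and 1.32 CPM in OFF and 0.409 and 0.545 CPM in ON (log2 1.58 ± 0.46; edgeR adjusted p = 0.125). Few counts lay behind Snora2b and Snora20, whose SEs were the largest of the 16.

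Snora68 had 9.76 and 8.59 CPM in OFF against 4.50 and 2.92 CPM in ON (log2 1.31 ± 0.25; edgeR adjusted p = 0.0490), without overlap. The call of Snora68 was lost in 12 alternatives, with an adjusted p of 0.174 without OFF 1, 0.0714 without OFF 2, 0.0956 without ON 2, 0.104 without WT 1 and 0.121 without WT 2. Snora57, with no gene around it on its strand, had 11.5 and 13.0 CPM in OFF and 7.05 and 4.61 CPM in ON (log2 1.07 ± 0.23; edgeR adjusted p = 0.0689). Snora17, also outside any same-strand gene, had 6.12 and 5.53 CPM in OFF and 3.42 and 3.77 CPM in ON (log2 0.70 ± 0.26; edgeR adjusted p = 0.194). Snora17 is uncertain, since 273 other genes match it at 80% identity and coverage or more. Snora78, in the long non-coding RNA gene Snhg9 with Rps2 on the other strand, had 6.07 and 7.15 CPM in OFF and 4.75 and 3.96 CPM in ON (log2 0.60 ± 0.26; edgeR adjusted p = 0.246).

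Snora73b, the U17 RNA, was the one tested member whose OFF and ON libraries overlapped. It had 136 and 76.1 CPM in OFF and 71.7 and 79.0 CPM in ON (log2 0.49 ± 0.37; edgeR adjusted p = 0.510). OFF 1 stood above both ON libraries and OFF 2 between them. Snora73b took up 22.7% and 16.6% of H/ACA counts in OFF against 33.4% and 34.0% in ON. Snora73b lies in introns of Rcc1 and Snhg3, and an exon of the antisense gene model Gm17300 overlaps it.

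**Figure D2:**
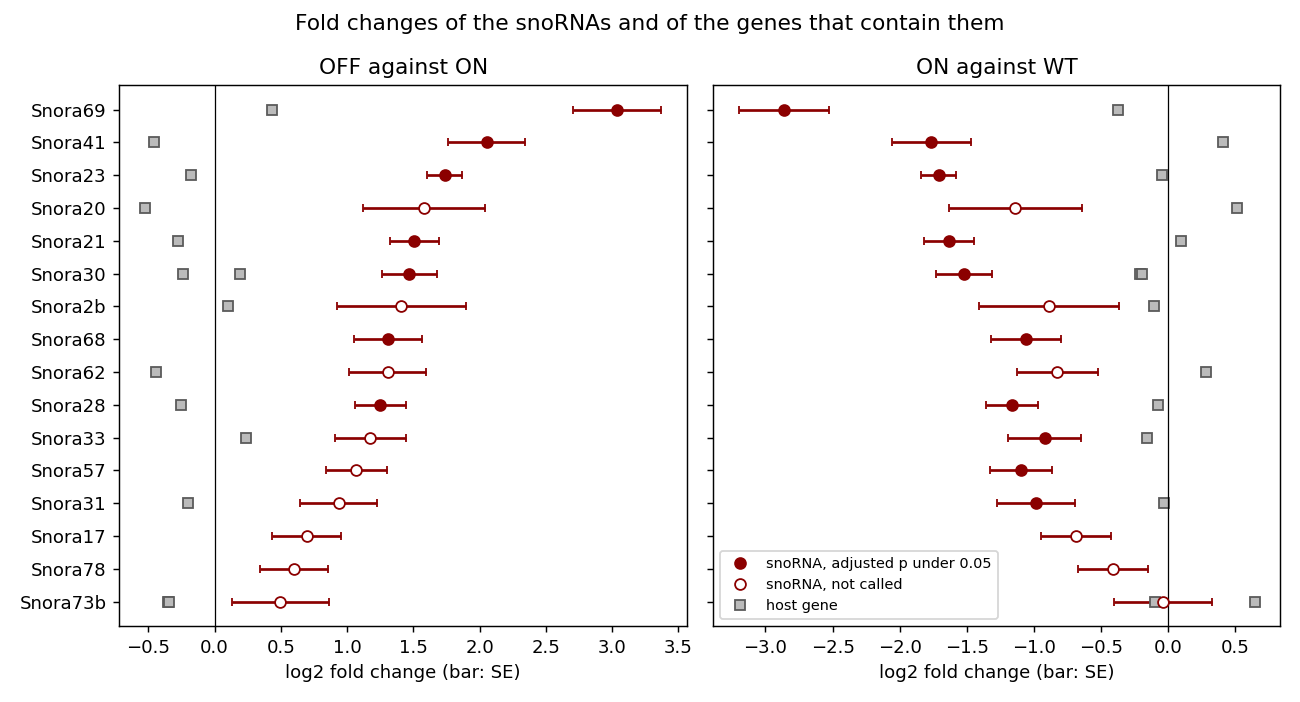
Log2 fold changes of the 16 tested snoRNAs (circles, bars for the SE, filled where the adjusted p is under 0.05) and of genes that contain them (squares, where shown), for OFF against ON on the left and ON against WT on the right. The snoRNAs run from 0.49 to 3.04 on the left while their hosts run from -0.53 to 0.43.

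Host genes were called at a rate near that of all genes. Of 16 tested host genes 0 were called between OFF and ON by edgeR (smallest adjusted p = 0.0834), a count near the 1.03% of all tested genes called, and 5 of 16 had an unadjusted p under 0.05, beside 3008 of 15780 over all genes. Their log2 fold changes ran from -0.53 to 0.43 with a median of -0.24. Rpl23 averaged 720 CPM in OFF and 874 in ON. Ipo7 averaged 86.6 CPM in OFF and 98.0 in ON. Eef1b2 averaged 689 CPM in OFF and 947 in ON. Only the last of the 4 hosts given here was higher in OFF: Rpl39 averaged 153 CPM in OFF and 114 in ON and was not called (log2 0.43; edgeR adjusted p = 0.116). Set against the host, Snora23 had 1596 and 1419 counts per 1000 Ipo7 counts in OFF and 406 and 394 in ON. Snora21 had 291 and 218 counts per 1000 Rpl23 counts in OFF and 62.8 and 83.7 in ON. Snora69 had 57.4 and 43.1 counts per 1000 Rpl39 counts in OFF and 7.96 and 8.40 in ON. For all 3 the ratio was lower in both ON libraries, but these are members whose calls held under every alternative run. Ratios overlapped for Snora78 against Snhg9, itself too low to be tested (26250 and 13222 in OFF, 23250 and 11429 in ON). They also overlapped for Snora47 against Zbed3 (122 and 245, 70.7 and 170). Snora73b overlapped against Snhg3 (90615 and 35167, 25491 and 43081) but not against Rcc1 (8726 and 5577, 3595 and 4541). These ratios compare libraries and not molecules, since host and snoRNA differ in length.

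The comparison of ON with WT sets RBPJind cells kept on Dox against wild type cells. Genotype, sort gate and maturity differ together here and cannot be told apart, and markers of other cells were called higher in ON by edgeR, 4 of 5 for B cells, 3 of 3 for regulatory T cells, 3 of 5 for myeloid cells and 1 of 2 for CD8 T cells. Their part in the result was not tested. H/ACA snoRNAs had lower scaled counts in ON than in WT, and the recovery of short RNA was not tested here either. Of the 16 tested, 10 were called lower in ON and 0 higher, beside 5.16% of all tested genes called lower and 9.68% called higher (14.8% in either direction). The median log2 fold change was -1.08, a 2.11-fold lower level, within a range of -2.86 to -0.04 and beside -0.02 over all genes. Both ON libraries lay below both WT libraries for 14 of the 16, against 30% of all genes. The share of gene counts was 0.0221% and 0.0243% in ON and 0.0530% and 0.0468% in WT.

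Among snoRNAs of ribosomal protein genes, Snora69 had 0.869 and 0.991 CPM in ON against 7.66 and 5.99 CPM in WT, 7.28-fold lower (log2 -2.86 ± 0.34; edgeR adjusted p = 9.66e-04). Snora21 had 53.2 and 75.4 CPM in ON against 211 and 187 CPM in WT, 3.10-fold lower (log2 -1.63 ± 0.19; edgeR adjusted p = 8.59e-04). In both cases the groups did not overlap. Snora33 had 3.94 and 3.22 CPM in ON against 5.68 and 7.85 CPM in WT (log2 -0.92 ± 0.27; edgeR adjusted p = 0.0488). This call was lost in 10 alternatives, among them those without any library other than OFF 2 (adjusted p 0.0512 to 0.356), no filter (0.101), limma-voom (0.0638) and only the 4 libraries compared (0.0559). Snora62, with 6.75 and 3.27 CPM in ON and 8.19 and 9.54 CPM in WT, was not called (log2 -0.83 ± 0.30; edgeR adjusted p = 0.0962) but was without ON 1 (log2 -1.42; 0.00987).

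Snora41 had 3.68 and 2.38 CPM in ON against 10.4 and 10.2 CPM in WT, 3.40-fold lower (log2 -1.76 ± 0.29; edgeR adjusted p = 0.00525). Snora28 had 6.29 and 5.25 CPM in ON against 12.1 and 13.7 CPM in WT, 2.24-fold lower (log2 -1.16 ± 0.19; edgeR adjusted p = 0.00528), a call lost without WT 2 (0.0860). For both, the ON libraries lay below both WT libraries. Snora23 had 39.6 and 38.9 CPM in ON against 134 and 122 CPM in WT, 3.27-fold lower (log2 -1.71 ± 0.13; edgeR adjusted p = 9.84e-05). Snora30 had 3.63 and 4.01 CPM in ON against 10.8 and 11.2 CPM in WT, 2.87-fold lower (log2 -1.52 ± 0.21; edgeR adjusted p = 0.00213). For both of these the libraries of each group lay close together and the groups did not overlap.

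Snora68 had 4.50 and 2.92 CPM in ON against 8.07 and 7.38 CPM in WT (log2 -1.06 ± 0.26; edgeR adjusted p = 0.0255), a call lost without ON 2, WT 1 or WT 2 (0.0965 to 0.162). Snora57 had 7.05 and 4.61 CPM in ON against 11.7 and 13.3 CPM in WT (log2 -1.10 ± 0.23; edgeR adjusted p = 0.0147), a call lost without ON 2, WT 1 or WT 2 (0.0542 to 0.141). Snora31 had 3.63 and 2.28 CPM in ON against 5.68 and 5.99 CPM in WT (log2 -0.98 ± 0.29; edgeR adjusted p = 0.0496), a call lost in 11 alternatives, among them those without OFF 1, ON 2, WT 1 or WT 2 (0.0525 to 0.246), limma-voom (0.0529), DESeq2 (0.0510), edgeR's older method (0.0532), no filter (0.0904) and only the 4 libraries compared (0.0577). The 5 tested members not yet given here were not called. Snora17 had log2 -0.69 ± 0.26, Snora78 had -0.41 ± 0.26, Snora20 had -1.14 ± 0.49 and Snora2b had -0.89 ± 0.52, with edgeR adjusted p of 0.110 to 0.320. Snora73b had 71.7 and 79.0 CPM in ON and 103 and 51.7 CPM in WT (log2 -0.04 ± 0.37; edgeR adjusted p = 0.955), and its WT libraries lay on either side of ON. Of the host genes Rcc1 (log2 0.64; edgeR adjusted p = 0.0326) and Tcp1 (log2 0.51; edgeR adjusted p = 0.0286) were called higher in ON than in WT and 0 lower, beside 14.8% of all tested genes called.

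No member passed the test between OFF and WT. By edgeR 0 of the 16 tested were called, beside 4.7% of all tested genes called higher in OFF and 2.14% lower (6.83% in all). DESeq2 called 0 and limma-voom 0, and with edgeR 0 had an unadjusted p under 0.05. The log2 fold changes ran from -0.12 to 0.52 with a median of 0.18, and their SEs from 0.13 to 0.45. The adjusted p ran from 0.359 to 0.995. Both OFF libraries stood above both WT libraries for 3 members, against 29.8% of all genes, and below them for 0, against 25.8%. The 3 were Snora62 (12.5 and 12.3 CPM in OFF, 8.19 and 9.54 in WT), Snora68 (9.76 and 8.59 in OFF, 8.07 and 7.38 in WT) and Snora20 (1.56 and 1.32 in OFF, 1.02 and 1.10 in WT). Snora23 averaged 131 ± 16.0 CPM in OFF and 128 ± 8.41 in WT, and Snora21 averaged 183 ± 33.7 in OFF and 199 ± 17.2 in WT (SD, n = 2 each). A missed threshold does not show equal levels. The share of gene counts averaged 0.0510 ± 0.00925% in OFF, 0.0232 ± 0.00153% in ON and 0.0499 ± 0.00444% in WT. Both ON libraries lay below all 4 others for 14 of the 16, against 14.7% of all tested genes, the exceptions being Snora73b and Snora2b. The ON libraries serve in both comparisons, which are therefore not independent of each other.

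The size of the difference varied with base composition among the 16. Between OFF and ON the log2 fold change fell with rising GC content of the snoRNA (Spearman -0.69, Pearson -0.64 over 16 members of the same 6 libraries, given as a description). With length the Spearman correlation was 0.03 and with mean CPM it was 0.03. The 8 members of lowest GC content, 38.0% to 46.7%, had a median log2 fold change of 1.54 with 5 called. The 8 of highest, 47.7% to 64.1%, had a median of 1.00 with 2 called. Of all tested genes 0.602% were called higher in OFF. Snora69 is 39.7% GC, and Snora78, at 64.1%, had the highest GC content and a log2 fold change of 0.60. For ON against WT the Spearman correlation with GC content was 0.51, the fall being deeper at low GC. A fit that removed a trend with GC content across all genes was chosen after seeing the data. It called 7 members between OFF and ON, with a median of 1.27, beside 1.33% of all tested genes. Between ON and WT it called 8, with a median of -1.04, beside 14.6%. The trend was drawn over all 15718 tested genes of known GC content. The fit therefore cannot remove a trend particular to RNAs of 127 to 205 bases, and such a trend was not tested.

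**Figure D3:**
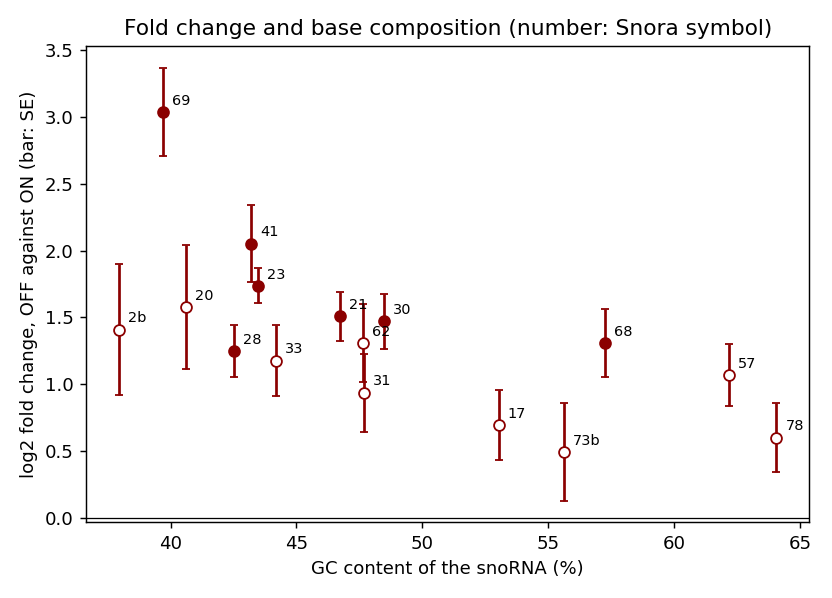
GC content of each tested snoRNA (%) against its log2 fold change between OFF and ON, with bars for the SE, filled points for an adjusted p under 0.05 and the number of each Snora symbol beside its point. Snora69, at 39.7% GC, stands highest at 3.04, and the 8 points of highest GC have a median of 1.00 against 1.54 for the others.

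Near-identical genes limit some counts. Another gene matched at 80% identity and coverage or more for 11 of the 17. The closest match of Snora21 was Gm23795 (97.8% identity, 7 counts over the 6 libraries), that of Snora41 was Gm23723 (97.7%, 14 counts) and that of Snora30 was Gm25133 (98.5%, 3 counts). For Snora23, Snora28, Snora62, Snora69, Snora78 and Snora47 no such match was found. The called members thus include both kinds. Matches with many counts were also found. Snora73b matched Gm26448, an annotated snoRNA gene without a Snora symbol, at 89.1% identity, and Gm26448 held 12650 counts, more than Snora73b itself. Its counts were 2410 and 1957 in OFF, 1772 and 1949 in ON and 2234 and 2328 in WT. The H/ACA sums, shares and ratios given here leave out Gm26448 and other genes without a Snora symbol. Snora2b, with 209 counts, matched Gm22806 (92.0% identity, 69 counts).

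Box C/D snoRNAs, which guide ribose methylation and are also mostly cut from introns, served as the nearest other class. Of 98 annotated, 26 were tested, and edgeR called 3 more abundant in OFF and 0 less abundant when set against ON, with a median log2 fold change of 0.67, beside 0.602% of all tested genes called higher and 0.425% lower. Between ON and WT it called 3 lower in ON and 0 higher, with a median of -0.65, beside 5.16% and 9.68% of all tested genes. Their share of gene counts averaged 0.0836% in OFF, 0.0537% in ON and 0.107% in WT. For every 100 box C/D counts there were 63.2 and 58.3 H/ACA counts in OFF, 45.9 and 41.1 in ON and 48.3 and 44.6 in WT. The ratio in OFF thus lay above that in both other groups, which overlapped each other. Whether the classes differ in their response was not tested.

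**Figure D4:**
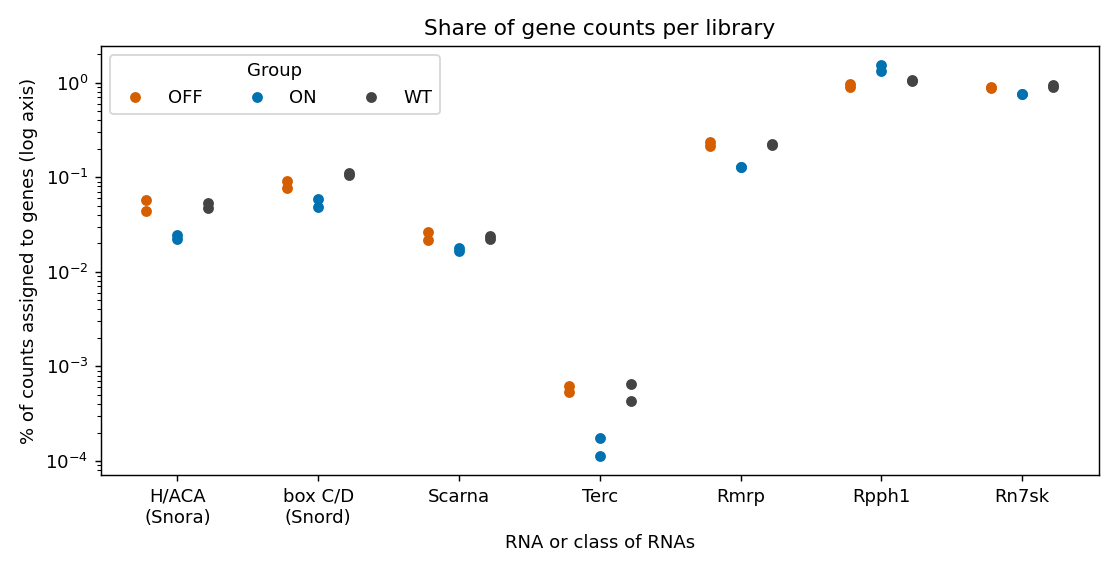
Share of all gene counts (%, log axis) of box H/ACA and box C/D snoRNAs, Scarna genes and 4 single non-coding RNAs in each library of OFF, ON and WT. The H/ACA share lies at 0.0221% and 0.0243% in ON and at 0.0444% or more in the other libraries, while Rpph1 is highest in ON.

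Genes of the H/ACA pathway were called at a rate near that of all genes between OFF and ON. Of 36 genes in 5 lists, all tested, edgeR called 0 between OFF and ON (smallest adjusted p = 0.130), near the 1.03% of all tested genes, and 6 had an unadjusted p under 0.05, beside 3008 of 15780 over all genes. The 36 had a median log2 fold change of -0.21, with 25 below 0. The core proteins had log2 fold changes of -0.37 for Dkc1, -0.37 for Gar1, -0.20 for Nhp2 and 0.12 for Nop10. Dkc1, the pseudouridine synthase, had 48.2 and 50.4 CPM in OFF and 56.7 and 70.9 CPM in ON. Assembly factors had a median of -0.29, with Naf1, which escorts new particles, at 0.62 (edgeR adjusted p = 0.158). Cajal body genes had a median of -0.41, with Nolc1 lowest at -0.49. Genes of 3' end maturation, among them the deadenylase gene Parn and the exosome gene Exosc10, had a median of -0.03, and stand-alone pseudouridine synthases, which need no guide RNA, one of -0.21. Between ON and WT 1 of the 36 was called, against 14.8% of all tested genes. It was Shq1, a chaperone of dyskerin, which was lower in ON (log2 -0.89; edgeR adjusted p = 0.0279). It had 4.19 and 4.31 CPM in ON against 7.90 and 7.91 CPM in WT. Between OFF and WT 0 were called, with a median of 0.01.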

How the data were processed

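Total RNA of sorted spleen CD4 T cells (6 samples) was read on a NovaSeq and aligned to GRCm38, per the labels' protocols. Software listed in the submitters' processing notes is edgeR and R 3.6.2. Not given in the sources used here are the library kit, the aligner, the counter with its strand setting and the annotation release, so antisense overlaps may add to a gene's reads. Deposited values were whole, unnormalized gene counts. Summary rows entered neither library sizes nor tests, and 33.7% to 46.9% of reads were assigned to genes.

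In GENCODE mouse release 21, 47310 of 47729 identifiers were found. filterByExpr (minimum count 10, minimum total 15) kept 15780 genes, and libraries were scaled by TMM, which also scales the CPM (counts scaled to a common library size) given. Tests used edgeR's robust quasi-likelihood method, all 6 libraries in 1 fit (3 residual degrees of freedom), with Benjamini-Hochberg adjustment over all tested genes; an adjusted p under 0.05 was called. A fit with 1 library of a group left out assumes that the lone library varies like the others. Libraries of 1 group differed beyond sampling noise (chi-square per degree of freedom 20.1 in OFF, 69.5 in ON and 9.90 in WT). Motifs were matched as plain text and near-identical genes found with blastn 2.17.0. The steps were tested on simulated data. Versions were edgeR 4.0.16, DESeq2 1.42.0, limma 3.58.1 and statmod 1.5.0 in R 4.3.3.

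Described were the annotated Snora genes with 20 or more counts. Named with values were called members, the 10 most abundant, Snora73a, Snora73b, Snora74a, Snora31, Snora69, Snora23 and Snora41, host genes and 5 pathway lists (the host of 1 member is not reported here); other members described, and Terc, Rmrp, Rpph1, Rn7sk and Rbpj, were added after their values were seen. The members and lists were chosen with earlier results of these data known. Alternatives were other scalings, filters and tests, only the 4 libraries compared, the replicate number as a block, and fits without 1 library each.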

Additional observations from a re-analysis of the deposited data

How the results depend on the processing

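Counts of called members were 7 for OFF against ON, 10 for ON against WT and 0 for OFF against WT. Of all tested genes 1.03%, 14.8% and 6.83% were called in these comparisons. OFF against WT gave 0 under every alternative run. For OFF against ON the count was 4 with only the 4 libraries compared and 10 with DESeq2, beside 0.398% and 3.56% of all tested genes. With each library left out in turn, the median log2 fold change of the members was 1.07 to 1.39. For ON against WT that median was -1.36 to -0.90. Calls lost in such fits are given above. Other scalings, filters and tests gave counts of 6 to 7 between OFF and ON, beside 0.323% to 1.23% of all tested genes. Between ON and WT they gave 8 to 10, beside 4.28% to 18.5%. The calls of Snora21, Snora23, Snora41 and Snora69 held in both comparisons under every alternative run. That of Snora30 between OFF and ON was lost with only the 4 libraries compared (adjusted p = 0.0591). Without ON 1, Snora62 (log2 1.92, edgeR adjusted p = 0.00850) and Snora57 (log2 1.41, 0.0182) were called between OFF and ON. The direction turned only for Snora73b between ON and WT, which was never called, at log2 0.025 with no filter, 0.043 with limma-voom, 0.063 with the replicate block, and -0.44 to 0.55 with each library left out (0.05 without ON 1, 0.55 without WT 1); the cause was not tested. As a share of protein-coding counts the class made up 0.0761% in OFF, 0.0314% in ON and 0.0748% in WT. Replicate numbers did not pair the samples (correlation of deviations -0.198 for OFF and ON, 0.0771 for ON and WT and -0.212 for OFF and WT). With the replicate block 5, 8 and 0 members were called, beside 0.380%, 9.13% and 4.20% of all tested genes. Calls lost between OFF and ON were those of Snora28 (edgeR adjusted p = 0.0751) and Snora68 (0.0992). Between ON and WT those of Snora31 (0.0775) and Snora33 (0.0936) were lost. A crossed block was chosen after seeing the data, from the deviations of these same libraries. That choice by itself favours more calls, so its counts are no check of the result. It called 13 members between OFF and ON, beside 11.4% of all tested genes, and 0 between OFF and WT, beside 19.3%. With a minimum of 50 counts 16 members would be described. Members under about 2 CPM rest on few counts, and Snora47 could not be tested.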

Other observations

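Some other non-coding RNAs, chosen after their values were seen, stood lower in ON as well, while one stood higher. Terc, the telomerase RNA, which also has an H/ACA domain, had 5.60 and 6.49 CPM in OFF against 1.69 and 1.09 CPM in ON (log2 2.12 ± 0.35; edgeR adjusted p = 0.0297) and was at 6.64 and 4.24 CPM in WT. Against WT it was lower in ON (log2 -1.97 ± 0.36; edgeR adjusted p = 0.00785) and not called in OFF (log2 0.15; edgeR adjusted p = 0.823). Rmrp, the RNA of RNase MRP, averaged 2317 CPM in OFF, 1234 in ON and 2232 in WT (OFF against ON log2 0.91 ± 0.12; edgeR adjusted p = 0.0107). Rpph1, the RNA of RNase P, averaged 9689 CPM in OFF, 13748 in ON and 10581 in WT and was not called between OFF and ON (log2 -0.50 ± 0.14; edgeR adjusted p = 0.109). Rn7sk, the 7SK RNA, averaged 9273 CPM in OFF, 7295 in ON and 9278 in WT and was not called either (log2 0.35; edgeR adjusted p = 0.184). Scarna genes, the Cajal body guides, took up 0.0238% of gene counts in OFF, 0.0171% in ON and 0.0231% in WT. Rnu genes, of small nuclear RNAs, took up 0.00976% in OFF, 0.00358% in ON and 0.00754% in WT. Rn7s genes, of the signal recognition particle, averaged 0.00921% in OFF, 0.00224% in ON and 0.00509% in WT. Their OFF libraries lay apart, at 0.0125% and 0.00595%.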
